A study of Mus musculus with 15 samples.

Results

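The 42 genes described here encode proteins that copy DNA in S phase of the cell cycle. They were taken as a named list of replication genes and matched by symbol through the Ensembl gene identifiers of the count files, which hold 25700 genes. All 42 had counts, and 41 were among the 12279 genes with enough counts to be tested. E2f2 was not. By role, 10 genes license replication origins, 6 activate the replicative helicase, 6 form the sliding clamp and its loader, 7 encode polymerase and primase subunits, 3 encode the single-strand binding protein RPA, 4 supply nucleotides and 6 regulate S phase.

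RNA was sequenced from 3T3-L1, a line of mouse preadipocytes whose confluent cultures turn into fat-storing adipocytes when given a mixture of insulin, dexamethasone and IBMX. Each of 5 groups had 3 libraries. Cells depleted of MIGA2 (MIGA2-KO) were harvested at day 6, cells overexpressing a MIGA2-GFP fusion at day 6, wild-type (WT) cells at day 6, MIGA2-KO cells at day 0 and WT cells at day 0. MIGA2 is mitoguardin 2, a protein of the outer mitochondrial membrane. Day 0 was the moment when the hormone mixture was added, after a further 48 h at full confluence, and all day 6 groups had received the same mixture, then insulin alone and then plain serum medium. How MIGA2 was depleted, whether either modified line is 1 clone, and what drives the MIGA2-GFP construct are not given in the labels. MIGA2-GFP cells were sampled at day 6 only.

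Replication starts when the origin recognition complex, Cdc6 and Cdt1 load the ring of Mcm2 to Mcm7 onto DNA in G1. Cyclin E with its kinase and E2F transcription factors then drive entry into S phase, in which Cdc45 and the GINS complex turn the loaded ring into an active helicase and polymerases follow it with the PCNA clamp. Confluent 3T3-L1 cells are known to re-enter the cell cycle for a short time after the hormone mixture is added and to leave it before they fill with lipid, so day 0 and day 6 lie on either side of that interval.

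Miga2 itself did not follow the labels in the mRNA. It stood at 925.7, 74.5 and 70 CPM (counts scaled to a common library total with TMM factors) in the libraries labelled MIGA2-KO day 6 and at 155.4 to 165.6 CPM in MIGA2-GFP day 6, against 145.2 to 181.8 CPM in WT day 6. At day 0 it was at 17.2 to 22.6 CPM in the libraries labelled MIGA2-KO, against 13.6 to 17.8 CPM in WT. MIGA2-KO against WT passed neither at day 6 (log2 fold change 1.14, adjusted p = 0.157, edgeR quasi-likelihood test) nor at day 0 (0.38, adjusted p = 0.708, edgeR), so directions below are those of the libraries labelled MIGA2-KO. Summed adipocyte markers (9 genes, all 9 higher at day 6 than at day 0 in both MIGA2-KO and WT cells) ranged over 9245 to 14890 CPM in MIGA2-KO day 6, 28200 to 30100 CPM in MIGA2-GFP day 6 and 42650 to 56550 CPM in WT day 6, against 1152 to 1185 CPM in MIGA2-KO day 0 and 680 to 806 CPM in WT day 0. Summed preadipocyte and fibroblast markers (8 genes) ranged over 11950 to 19940 CPM in MIGA2-KO day 6, 6281 to 6570 CPM in MIGA2-GFP day 6, 6025 to 6216 CPM in WT day 6, 15750 to 17450 CPM in MIGA2-KO day 0 and 17750 to 22380 CPM in WT day 0. These 8 did not move as 1. Over time 7 were lower and 0 higher in WT cells, and 4 were lower and 2 higher in MIGA2-KO cells. Against WT, 3 were lower and 0 higher in MIGA2-KO at day 0, 1 lower and 5 higher at day 6, and 2 lower and 2 higher in MIGA2-GFP. Macrophage markers summed to at most 5.42 CPM, endothelial markers to at most 1.22 CPM and epithelial markers to at most 9.94 CPM in any library, and Ptprc, Epcam and Cdh1 were at 0 in all 15. Library totals were 10748668 to 13443736 counts, except 19625147 to 26003871 in WT day 0. Replicate 1 stood apart from the other pair in WT day 0, WT day 6 and MIGA2-KO day 6, and the WT libraries differed by trends in GC content and transcript length. In bulk RNA, fewer cells of a type and less RNA per cell cannot be told apart. What part the marker differences or these library trends had in the results below was not tested, except for the values given with offsets for GC content and length.

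Replication transcripts were present in all 5 groups, those with adipocyte markers included. The 42 genes summed to 705.4 ± 18.1 CPM in MIGA2-KO day 6, 690.7 ± 2.6 CPM in MIGA2-GFP day 6, 1029 ± 53.3 CPM in WT day 6, 663.5 ± 4.1 CPM in MIGA2-KO day 0 and 801.2 ± 52.7 CPM in WT day 0 (SD, n = 3 each). Pole4 alone made the WT day 6 sum the highest. Without it the other 41 genes summed to 636.4 ± 18 CPM in MIGA2-KO day 6, 522.3 ± 6.6 CPM in MIGA2-GFP day 6, 625.5 ± 21.4 CPM in WT day 6, 630.1 ± 1.0 CPM in MIGA2-KO day 0 and 756.3 ± 44.6 CPM in WT day 0. So the highest remaining sum was that of WT day 0 and the lowest that of MIGA2-GFP, while MIGA2-KO cells had nearly the same sum on both days. Per length of exon, the highest mean levels over the 5 groups were those of Pole4 at 57.4 CPM per kb, Gins4 at 21.1 CPM per kb, E2f1 at 15.6 CPM per kb, Rpa3 at 15 CPM per kb and Pcna at 11.4 CPM per kb. The lowest were those of E2f2, E2f8, Orc1, Mcm10 and Cdc6, which rest on few reads. Orc1, for example, had 14 counts over the MIGA2-KO day 6 libraries, 5 in MIGA2-GFP day 6, 26 in WT day 6, 15 in MIGA2-KO day 0 and 86 in WT day 0.

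**Figure D1:**
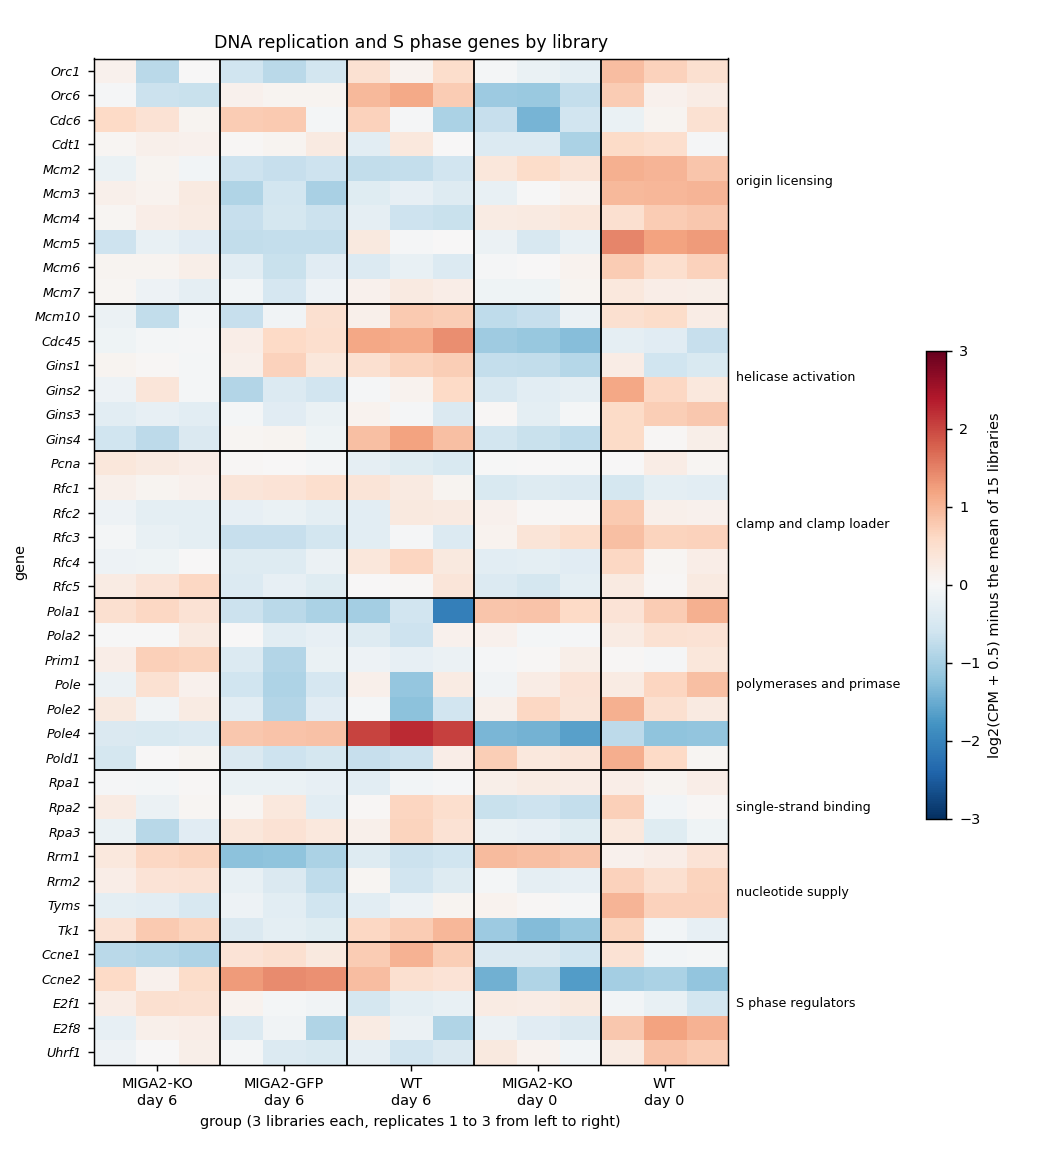
Level of each of the 41 tested genes (rows, by role) in each of the 15 libraries (columns, 3 per group), as log2(CPM + 0.5) minus the mean over all libraries, from blue (lower) to red (higher). WT day 0 is red for Mcm2 to Mcm6, WT day 6 is red for Cdc45, Gins4 and Pole4, and MIGA2-KO day 0 is blue for Orc6, Cdc45 and Tk1. Ccne2 is blue in both day 0 groups.

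The members described below by fold change alone are placed here by the lowest and the highest of their 5 group means (± SD, n = 3). Cdt1 had 3.87 ± 0.894 CPM in MIGA2-KO day 0 and 7.87 ± 1.77 CPM in WT day 0, Mcm6 18.5 ± 2.51 CPM in MIGA2-GFP day 6 and 40.1 ± 3.63 CPM in WT day 0. Among the helicase activators, Mcm10 had 0.849 ± 0.319 CPM in MIGA2-KO day 0 and 2.39 ± 0.663 CPM in WT day 6, Gins1 0.977 ± 0.0771 CPM and 3.39 ± 0.366 CPM in the same groups, Gins2 2.98 ± 0.563 CPM in MIGA2-GFP day 6 and 8.36 ± 2.67 CPM in WT day 0, and Gins3 2.84 ± 0.105 CPM in MIGA2-KO day 6 and 6.16 ± 0.497 CPM in WT day 0. These 4 genes thus lay under 9 CPM in every group. Of the clamp loader, Rfc1 ran between 37.2 ± 1.07 CPM in MIGA2-KO day 0 and 67.5 ± 3.26 CPM in MIGA2-GFP day 6, Rfc2 between 21.5 ± 0.854 CPM in MIGA2-GFP day 6 and 33.6 ± 9.48 CPM in WT day 0, Rfc3 between 5.4 ± 0.351 CPM in MIGA2-GFP day 6 and 15.2 ± 1.47 CPM in WT day 0, Rfc4 between 7.66 ± 0.131 CPM in MIGA2-KO day 0 and 13.3 ± 1.83 CPM in WT day 6, and Rfc5 between 4.97 ± 0.461 CPM in MIGA2-KO day 0 and 9.31 ± 1.32 CPM in MIGA2-KO day 6. The polymerase and primase genes other than Pole4 had means under 15 CPM in every group. Pola2 ran between 8.9 ± 2.62 CPM in WT day 6 and 14.2 ± 1.07 CPM in WT day 0, Prim1 between 3 ± 0.799 CPM in MIGA2-GFP day 6 and 6.56 ± 1.32 CPM in MIGA2-KO day 6, Pole between 1.84 ± 0.341 CPM in MIGA2-GFP day 6 and 5.22 ± 1.28 CPM in WT day 0, Pole2 between 1.09 ± 0.616 CPM in WT day 6 and 3.15 ± 1.09 CPM in WT day 0, and Pold1 between 3.81 ± 0.294 CPM in MIGA2-GFP day 6 and 9.18 ± 3.37 CPM in WT day 0. Of the RPA genes, Rpa1 ran between 39.1 ± 0.841 CPM in MIGA2-GFP day 6 and 52.7 ± 1.39 CPM in MIGA2-KO day 0, Rpa2 between 5.3 ± 0.198 CPM in MIGA2-KO day 0 and 11.8 ± 2.54 CPM in WT day 6, and Rpa3 between 12 ± 2.78 CPM in MIGA2-KO day 6 and 22.3 ± 4.07 CPM in WT day 6. Rrm2 ran between 7.87 ± 1.52 CPM in MIGA2-GFP day 6 and 17.1 ± 1.47 CPM in WT day 0, Tyms between 8.31 ± 0.643 CPM in MIGA2-KO day 6 and 19.4 ± 2.74 CPM in WT day 0, and Uhrf1 between 5.3 ± 0.646 CPM in WT day 6 and 11.7 ± 2.58 CPM in WT day 0. Most of these genes had their highest mean in WT day 0.

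The first question is how these genes change as WT preadipocytes become adipocytes. At day 6, 19 of the 41 tested genes were lower and 10 higher than at day 0, with 12 not passing the test (edgeR quasi-likelihood test, Benjamini-Hochberg adjusted p under 0.05, as in every count below). Of all genes tested, 33.1% were lower and 31.7% higher, or 64.8% in either direction. The median log2 fold change of the 41 genes was -0.37, beside -0.04 over all genes tested. Libraries of the 2 days did not overlap, in either direction, for 27 of the 41. Of all genes tested, 28.9% were without overlap and lower and a further 28.7% without overlap and higher. These shares add up for such a count, here and below.

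In origin licensing 5 of 10 genes were lower and 1 higher. The 5 were Mcm2, Mcm3, Mcm4, Mcm5 and Mcm6, which encode all subunits of the helicase ring but Mcm7. Mcm2 (ENSMUSG00000002870, GRCm38 chromosome 6: 88883474 to 88898780, reverse strand) stood at 13.8, 14.1 and 15.4 CPM in WT day 6, against 49.7, 47.9 and 41.9 CPM in WT day 0. Its day 6 libraries were all far below its day 0 libraries, with a 3.21-fold lower level (log2 fold change -1.68 ± 0.12 SE, adjusted p = 8.62e-09, edgeR). Mcm3 stood at 10.9, 12.1 and 10.9 CPM in WT day 6, against 28.6, 29.2 and 29.8 CPM in WT day 0 (log2 fold change -1.37 ± 0.13, adjusted p = 4.07e-07, edgeR). Mcm4, Mcm5 and Mcm6 fell by 1.22, 1.28 and 1.01 on the log2 scale, each with no overlap between the days. Mcm7, the remaining subunit, stood at 35.3, 39.2 and 37.1 CPM in WT day 6, against 40.4, 37.4 and 36.6 CPM in WT day 0, and its libraries overlapped (log2 fold change -0.04 ± 0.13, adjusted p = 0.816, edgeR). On the per-length scale the ring subunits at day 0 lay between 3.42 CPM per kb for Mcm5 and 12.8 CPM per kb for Mcm4, with Mcm7 at 8.61 CPM per kb. At day 6 Mcm7 had the highest level of the 6, at 8.4 CPM per kb, above Mcm4 at 5.48 CPM per kb and Mcm5 at 1.4 CPM per kb. Among the loading factors, Orc6, the smallest origin recognition subunit, was higher at day 6 (log2 fold change 0.58), while Orc1 (-0.49), Cdc6 (-0.12) and the Mcm loader Cdt1 (-0.37) did not pass.

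E2F factors bind a short motif near the start of many replication genes. The letters TTCGCGC or TTGGCGC were searched on both strands of RefSeq promoter windows (GRCm38.p6, 250 bases before to 50 after each annotated start), which 35 of the 42 genes had. The motif was found in 14 of these 35 genes, and in 14 of their 39 windows (35.9%), against 1277 of all 32851 windows (3.89%). Forward and reverse matches that share bases were counted as 1 site. Of the 13 tested genes with the motif, 8 were lower and 2 higher at day 6 in WT cells, with a median log2 fold change of -1.06. Of the 21 tested genes with a window and no motif, 9 were lower and 5 higher, with a median of -0.12. In MIGA2-KO against WT at day 0, 8 of the 13 genes with the motif were lower and none higher (median -0.57), and 14 of the 21 without it were lower and 2 higher (median -0.65). Of all genes tested, 33.1% were lower and 31.7% higher over time in WT cells. In MIGA2-KO against WT at day 0 these shares were 17.7% and 16.1%. Whether the genes with and without the motif differ was not tested. CCAAT was found in 66.7% of the members' windows against 37.4% of all windows, and TTTGAA, the core of the element that DREAM complexes use at mitotic genes, in 12.8% against 17.9%. A match describes these letters only. Shown are the windows with the most sites, read along the gene's strand with the motif in capitals: Mcm6 (chr1:128359656-128359955, reverse strand) with 3 sites, Mcm5 (chr8:75109259-75109558, forward strand) and Pola1 (chrX:93632106-93632405, reverse strand) with 2 each, and Mcm3 (chr1:20820263-20820562, reverse strand) with 1, which had the smallest adjusted p over time in WT cells among the genes with 1 site.
Mcm6: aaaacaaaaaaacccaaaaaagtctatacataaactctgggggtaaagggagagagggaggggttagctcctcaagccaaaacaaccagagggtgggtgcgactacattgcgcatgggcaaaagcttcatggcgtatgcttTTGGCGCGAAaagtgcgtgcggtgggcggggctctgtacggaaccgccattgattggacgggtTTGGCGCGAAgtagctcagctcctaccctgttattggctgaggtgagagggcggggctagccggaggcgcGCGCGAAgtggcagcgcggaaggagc
Mcm5: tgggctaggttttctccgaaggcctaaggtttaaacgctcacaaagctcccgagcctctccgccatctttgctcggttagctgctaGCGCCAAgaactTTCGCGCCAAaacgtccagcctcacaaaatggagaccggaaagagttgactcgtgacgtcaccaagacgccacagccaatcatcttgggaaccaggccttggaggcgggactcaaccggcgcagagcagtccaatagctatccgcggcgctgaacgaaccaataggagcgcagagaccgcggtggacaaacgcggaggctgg
Pola1: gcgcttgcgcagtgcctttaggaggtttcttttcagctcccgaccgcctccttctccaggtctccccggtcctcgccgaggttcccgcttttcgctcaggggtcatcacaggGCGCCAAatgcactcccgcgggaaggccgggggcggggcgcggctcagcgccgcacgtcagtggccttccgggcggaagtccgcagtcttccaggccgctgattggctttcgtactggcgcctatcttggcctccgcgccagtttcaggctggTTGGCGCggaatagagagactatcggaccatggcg
Mcm3: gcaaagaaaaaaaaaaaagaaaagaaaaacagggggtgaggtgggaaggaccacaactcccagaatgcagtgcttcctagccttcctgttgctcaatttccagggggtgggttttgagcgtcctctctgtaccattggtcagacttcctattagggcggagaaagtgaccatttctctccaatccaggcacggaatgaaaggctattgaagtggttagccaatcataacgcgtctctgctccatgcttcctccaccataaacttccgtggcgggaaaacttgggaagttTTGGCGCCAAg
In Mcm6 the sites lie at -109 to -100, -46 to -37 and 25 to 31 from the annotated start, in Mcm5 at -164 to -158 and -152 to -143, and in Pola1 at -138 to -132 and 16 to 22. In Mcm3 the 1 site lies at 40 to 49, after the annotated start, and Mcm2, which fell furthest among the ring genes, has none in its window.

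**Figure D2:**
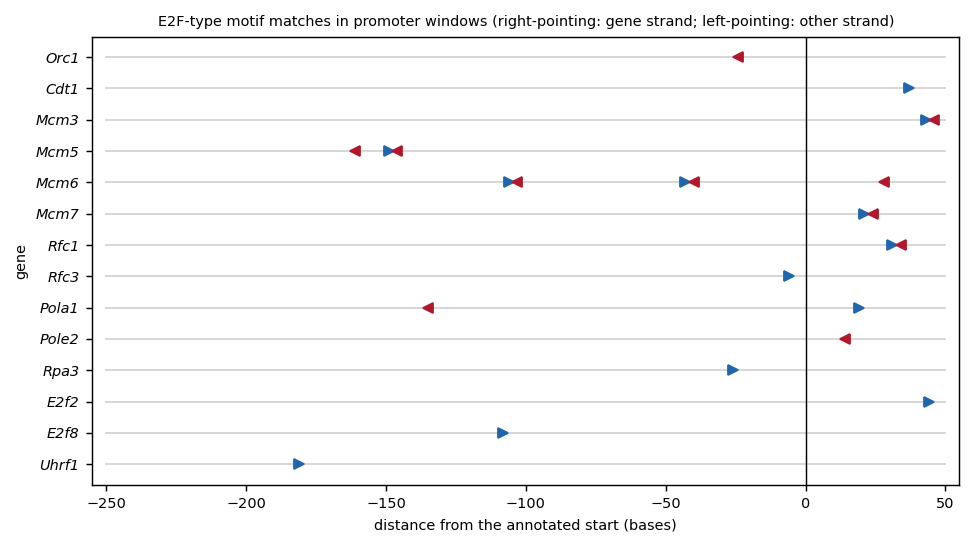
Position of each E2F-type match in the promoter windows of the 14 genes that hold one, as distance in bases from the annotated start (vertical line). Triangles give the strand of the match, and paired triangles are 1 site read on both strands. Matches cluster between -50 and 50 in Orc1, Cdt1, Mcm3, Mcm7, Rfc1, Rfc3, Pole2, Rpa3 and E2f2, while Mcm6 holds 3 separate sites.

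Of the 6 helicase activation genes 3 were higher, 1 was lower and 2 did not pass. With offsets for GC content and length the higher calls of Gins1 (adjusted p = 0.0606, edgeR) and Gins4 (adjusted p = 0.0872, edgeR) were lost and that of Cdc45 was kept. Cdc45, which joins the loaded ring to make the moving helicase, stood at 16.1, 15.7 and 19.1 CPM in WT day 6, against 5.71, 5.35 and 4.1 CPM in WT day 0, so its day 6 libraries were all above its day 0 libraries (log2 fold change 1.75 ± 0.16, adjusted p = 2.12e-07, edgeR). Of the 4 subunits of the GINS complex, Gins1 (log2 fold change 1.06) and Gins4 (0.74) were higher, Gins3 (-0.89) was lower and Gins2 (-0.53) did not pass. Mcm10, which acts with Cdc45 at origin firing, was also without a call (0.19). Gins4 stood at 48.4, 59.6 and 48.7 CPM in WT day 6, against 38.3, 26.4 and 29.1 CPM in WT day 0. Replicate 1 of WT day 0 was the closest of these to the day 6 values.

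In the clamp group 1 gene was higher, 2 were lower and 3 did not pass. Pcna, the ring that holds polymerases on DNA, stood at 22.5, 20.8 and 19.6 CPM in WT day 6, against 27.4, 31.8 and 28 CPM in WT day 0, and fell (log2 fold change -0.47 ± 0.10, adjusted p = 0.000733, edgeR). Its lowest day 0 library was above its highest day 6 library. Among the loader subunits, Rfc3 fell (-1.06 ± 0.15, adjusted p = 2.33e-05, edgeR) and Rfc1, the largest subunit, rose (0.63). Rfc2 (-0.29), Rfc4 (0.13) and Rfc5 (-0.06) did not pass.

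Of the 7 polymerase and primase genes 5 were lower, 1 was higher and 1 did not pass. With offsets for GC content and length the lower call of Pole was lost (adjusted p = 0.126, edgeR). Pola1, the catalytic subunit of polymerase alpha, which starts each new strand, stood at 2.53, 3.61 and 0.971 CPM in WT day 6, against 7.59, 9.89 and 12.4 CPM in WT day 0 (log2 fold change -2.07 ± 0.30, adjusted p = 2.37e-05, edgeR). The day 6 libraries were all lower, and WT day 6 replicate 3 was the lowest of all 15. Its partner Pola2 fell by 0.67, the catalytic subunits Pole and Pold1 of the leading and lagging strand polymerases by 0.85 and 1.03, and the accessory subunit Pole2 by 1.5 on the log2 scale. The primase subunit Prim1 did not pass (-0.33). Pole4 (ENSMUSG00000030042, chromosome 6: 82618992 to 82705365, reverse strand), a small histone-fold subunit of polymerase epsilon, went the other way. It stood at 380.3, 440.6 and 390.7 CPM in WT day 6, against 54.3, 39.9 and 40.8 CPM in WT day 0, an 8.98-fold higher level (log2 fold change 3.17 ± 0.13, adjusted p = 2.77e-11, edgeR). No other of the 41 genes had a wider fold change between the days in WT cells.

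RPA coats single-stranded DNA at the fork. Rpa1, its largest subunit, fell by 0.30 on the log2 scale (adjusted p = 0.0113, edgeR), Rpa3 rose by 0.49 (adjusted p = 0.0391, edgeR) with overlapping libraries, and Rpa2 did not pass (0.15). Of the nucleotide genes 3 of 4 fell. Rrm1, the large subunit of ribonucleotide reductase, stood at 48.7, 40.7 and 42.1 CPM in WT day 6, against 69.9, 73.9 and 85.5 CPM in WT day 0 (log2 fold change -0.80 ± 0.12, adjusted p = 4.63e-05, edgeR). Its day 6 libraries were all lower. The small subunit Rrm2 fell by 0.92 and thymidylate synthase Tyms by 0.97, while the salvage enzyme thymidine kinase Tk1 was higher (0.67) with overlapping libraries.

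The S phase regulators split. Ccne2, a cyclin E gene, stood at 4.52, 3.22 and 3.01 CPM in WT day 6, against 0.802, 0.881 and 0.663 CPM in WT day 0, a 4.54-fold higher level (log2 fold change 2.18 ± 0.28, adjusted p = 6.92e-06, edgeR). The other cyclin E gene, Ccne1, rose by 0.76. E2f8, an atypical E2F that represses its targets, stood at 0.814, 0.487 and 0.0971 CPM in WT day 6, against 1.46, 2.07 and 1.78 CPM in WT day 0 (log2 fold change -1.89 ± 0.46, adjusted p = 0.00208, edgeR). All its libraries were low, and the day 6 libraries lowest. E2f8 had enough counts to be tested only because of the WT day 0 libraries, so a lower call against that group was favoured in advance. Uhrf1, which recruits DNA methylation to newly copied DNA, fell by 1.14, and the activator E2f1 did not pass (-0.07).

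Offsets that removed each library's trend with GC content and transcript length ended the higher calls of Gins1 (0.48), Gins4 (0.20), Orc6 (0.14) and Tk1 (0.42) and the lower calls of Pole (-0.51) and Rpa1 (-0.09), and turned Rpa3 to -0.07, so that 5 genes were higher under them. They also added lower calls for Cdt1 (-0.67, adjusted p = 0.00213, edgeR), E2f1 (-0.35, adjusted p = 0.00158, edgeR) and Rfc4, which turned to -0.32 (adjusted p = 0.0244, edgeR), so that 20 genes were lower. With 1 library left out, Orc6 (adjusted p 0.0644 to 0.0852, edgeR) and Pole (0.0716 to 0.15) were lost without WT day 0 replicate 2 or 3 or WT day 6 replicate 2, Tk1 (0.0622 to 0.0682) without WT day 0 replicate 2 or 3 or WT day 6 replicate 3, Rpa1 (0.0528) without WT day 6 replicate 1, and Rpa3 (0.0518 to 0.182) without replicate 2 or 3 of either WT group or any 1 library of MIGA2-KO day 0 or MIGA2-GFP.

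**Figure D3:**
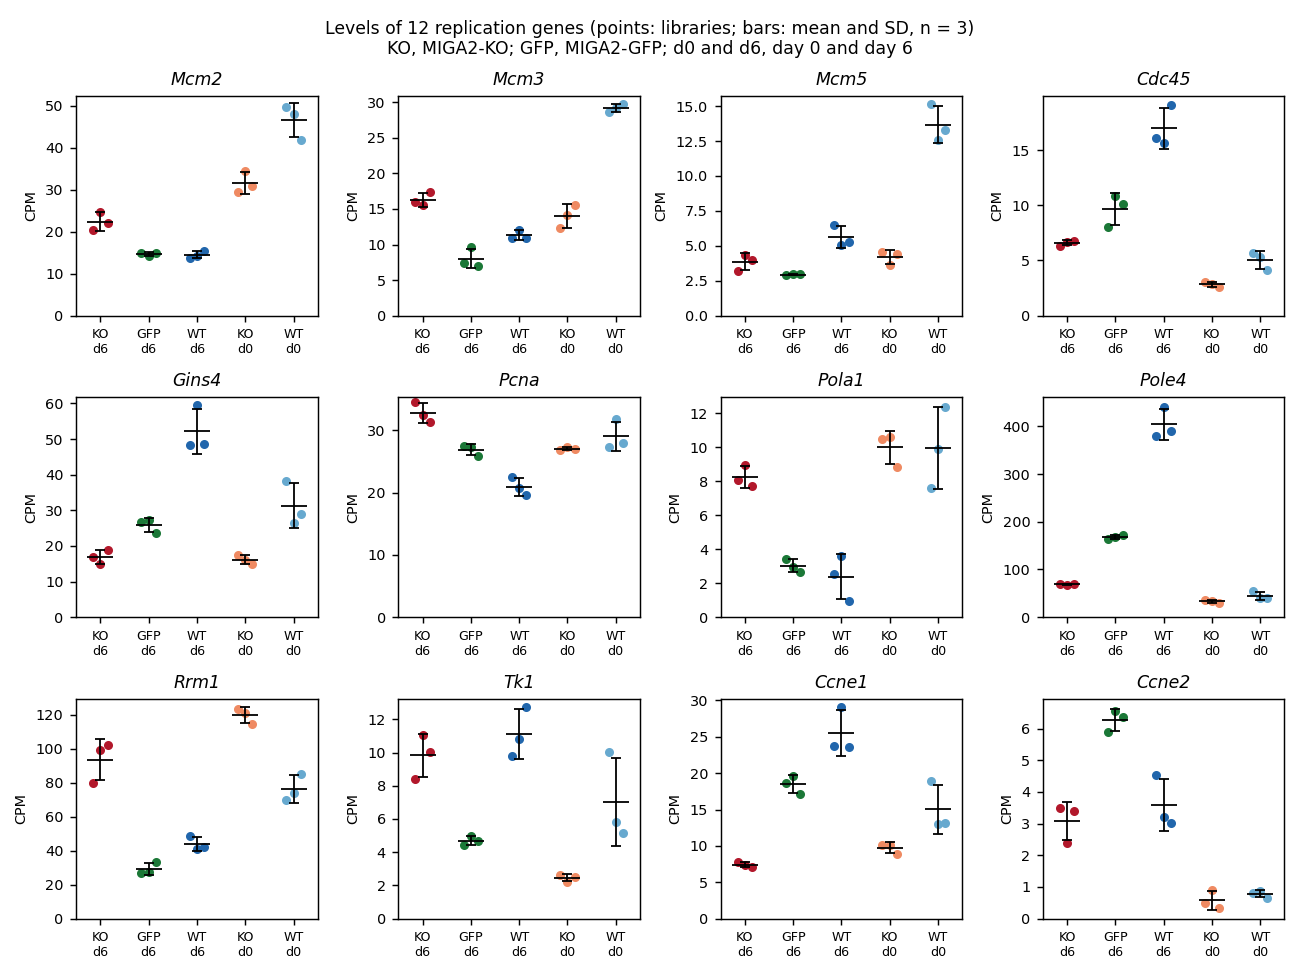
Level in CPM (y axis, from 0) of 12 of the genes in every library, with points for libraries and bars for mean and SD (n = 3) in MIGA2-KO day 6, MIGA2-GFP day 6, WT day 6, MIGA2-KO day 0 and WT day 0. Mcm2, Mcm3 and Mcm5 are highest in WT day 0, Pole4, Cdc45, Gins4 and Ccne1 in WT day 6, and Rrm1 in MIGA2-KO day 0.

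MIGA2-KO cells were compared between the same days. At day 6, 13 of the 41 genes were higher and 4 lower than at day 0, where 23.3% of all genes tested were higher and 21% lower, or 44.3% in either direction. The median log2 fold change of the genes was 0.09, beside 0.02 over all genes tested. The days did not overlap, in either direction, for 25 genes. Of all genes tested, 33.5% were without overlap and higher and a further 32.2% without overlap and lower. Of the 19 genes that were lower over time in WT cells, 4 were lower in MIGA2-KO cells (Mcm2, Rfc3, Rrm1 and Tyms), 2 were higher (Pcna and Rrm2) and 13 did not pass. Of the 10 that were higher in WT cells, 7 were higher in MIGA2-KO cells too.

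Of the 5 ring genes that fell in WT cells, Mcm2 alone was lower in MIGA2-KO cells. Mcm2 stood at 20.3, 24.8 and 22 CPM in MIGA2-KO day 6, against 29.5, 34.5 and 30.9 CPM in MIGA2-KO day 0, and was lower without overlap (log2 fold change -0.50 ± 0.11, adjusted p = 0.00217, edgeR). Mcm3 stood at 15.9, 15.5 and 17.3 CPM in MIGA2-KO day 6, against 12.3, 14.2 and 15.6 CPM in MIGA2-KO day 0, with overlap (0.21 ± 0.13, adjusted p = 0.212, edgeR). Mcm4 (-0.12), Mcm5 (-0.11), Mcm6 (0.09) and Mcm7 (-0.06) did not pass, nor did Orc1 (0.01). Cdc6, the ATPase that loads the ring, stood at 2.09, 1.81 and 1.31 CPM in MIGA2-KO day 6, against 0.562, 0.153 and 0.649 CPM in MIGA2-KO day 0, and rose (1.93 ± 0.58, adjusted p = 0.0147, edgeR). Cdt1 (0.75) and Orc6 (0.56) were higher as well.

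Of the other roles, Cdc45 rose (log2 fold change 1.21 ± 0.18, adjusted p = 7.41e-05, edgeR), at 6.35, 6.67 and 6.79 CPM in MIGA2-KO day 6, against 3.05, 2.91 and 2.6 CPM in MIGA2-KO day 0. Gins1 (1.06) also rose, and Mcm10 (0.32), Gins2 (0.47), Gins3 (-0.22) and Gins4 (0.06) did not pass. In the clamp group Rfc5 rose (0.91 ± 0.16, adjusted p = 0.000394, edgeR) together with Rfc1 (0.54) and Pcna (0.28), Rfc3 fell by 0.57, and Rfc2 (-0.31) and Rfc4 (0.25) did not pass. Pole4 was the only polymerase gene that passed, at 69.4, 68.1 and 69.6 CPM in MIGA2-KO day 6, against 35.7, 34.8 and 29.8 CPM in MIGA2-KO day 0 (1.05 ± 0.12, adjusted p = 5.7e-06, edgeR). Its libraries were tightly grouped on both days. Rpa2 rose (0.78), and Rpa1 (-0.23) and Rpa3 (-0.16) did not pass. Tk1 stood at 8.43, 11 and 10 CPM in MIGA2-KO day 6, against 2.65, 2.22 and 2.51 CPM in MIGA2-KO day 0 (2.00 ± 0.25, adjusted p = 1.12e-05, edgeR), well clear of its day 0 values. Rrm2 rose by 0.56, and Rrm1 and Tyms fell by 0.36 and 0.42. Ccne2 rose (2.39 ± 0.32, adjusted p = 2.74e-05, edgeR), at 3.48, 2.39 and 3.4 CPM in MIGA2-KO day 6, against 0.481, 0.918 and 0.324 CPM in MIGA2-KO day 0, while Ccne1 (-0.40), E2f1 (0.14), E2f8 (0.71) and Uhrf1 (-0.10) did not pass.

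Of these 17 calls, 8 held whichever library was left out, namely Cdc45, Rfc1, Rfc5, Pole4, Tk1, Ccne2, Mcm2 and Rfc3. Without MIGA2-KO day 0 replicate 3 the count of higher genes was 8, and the count of lower genes was 2 without MIGA2-KO day 0 replicate 1, MIGA2-KO day 0 replicate 2 or MIGA2-KO day 6 replicate 1. Cdc6 (adjusted p = 0.0675, edgeR) was lost without MIGA2-KO day 0 replicate 2, and Cdt1 (adjusted p = 0.0806, edgeR) and Gins1 (adjusted p = 0.0529, edgeR) without MIGA2-KO day 0 replicate 3. Pcna (adjusted p 0.063 to 0.0899, edgeR) was lost without any MIGA2-KO day 0 library or MIGA2-KO day 6 replicate 1 or 2, and Rrm2 (0.0552 to 0.0651) without replicate 2 or 3 of either MIGA2-KO group. Rpa2 (adjusted p 0.0575 to 0.0803, edgeR) was lost without MIGA2-KO day 0 replicate 1 or 3 or MIGA2-KO day 6 replicate 1, and Rrm1 (0.0723 to 0.114) without MIGA2-KO day 0 replicate 1 or 2 or MIGA2-KO day 6 replicate 1. Orc6 (adjusted p 0.0512 to 0.23, edgeR) was lost without those 3 libraries or any MIGA2-GFP library, and Tyms (0.0519 to 0.156) in 11 of 15 refits, all but those without WT day 0 replicate 1, WT day 6 replicate 1 or 3, or MIGA2-GFP replicate 3. The offsets for GC content and length ended the calls of Pcna (0.00), Orc6 (0.27), Rrm2 (0.35) and Tyms (-0.45), and the replicate block that of Tyms. The same offsets added lower calls for Rpa3 (-0.55), Ccne1 (-0.55) and Pold1 (-0.56). The count of lower genes was 8 with only the groups compared in the fit, where Rfc2, Ccne1, Pold1 and Rpa1 were added, and 7 without replicate 1 of WT day 0, WT day 6 and MIGA2-KO day 6 together, where Rfc2, Ccne1 and Rpa1 were added.

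**Figure D4:**
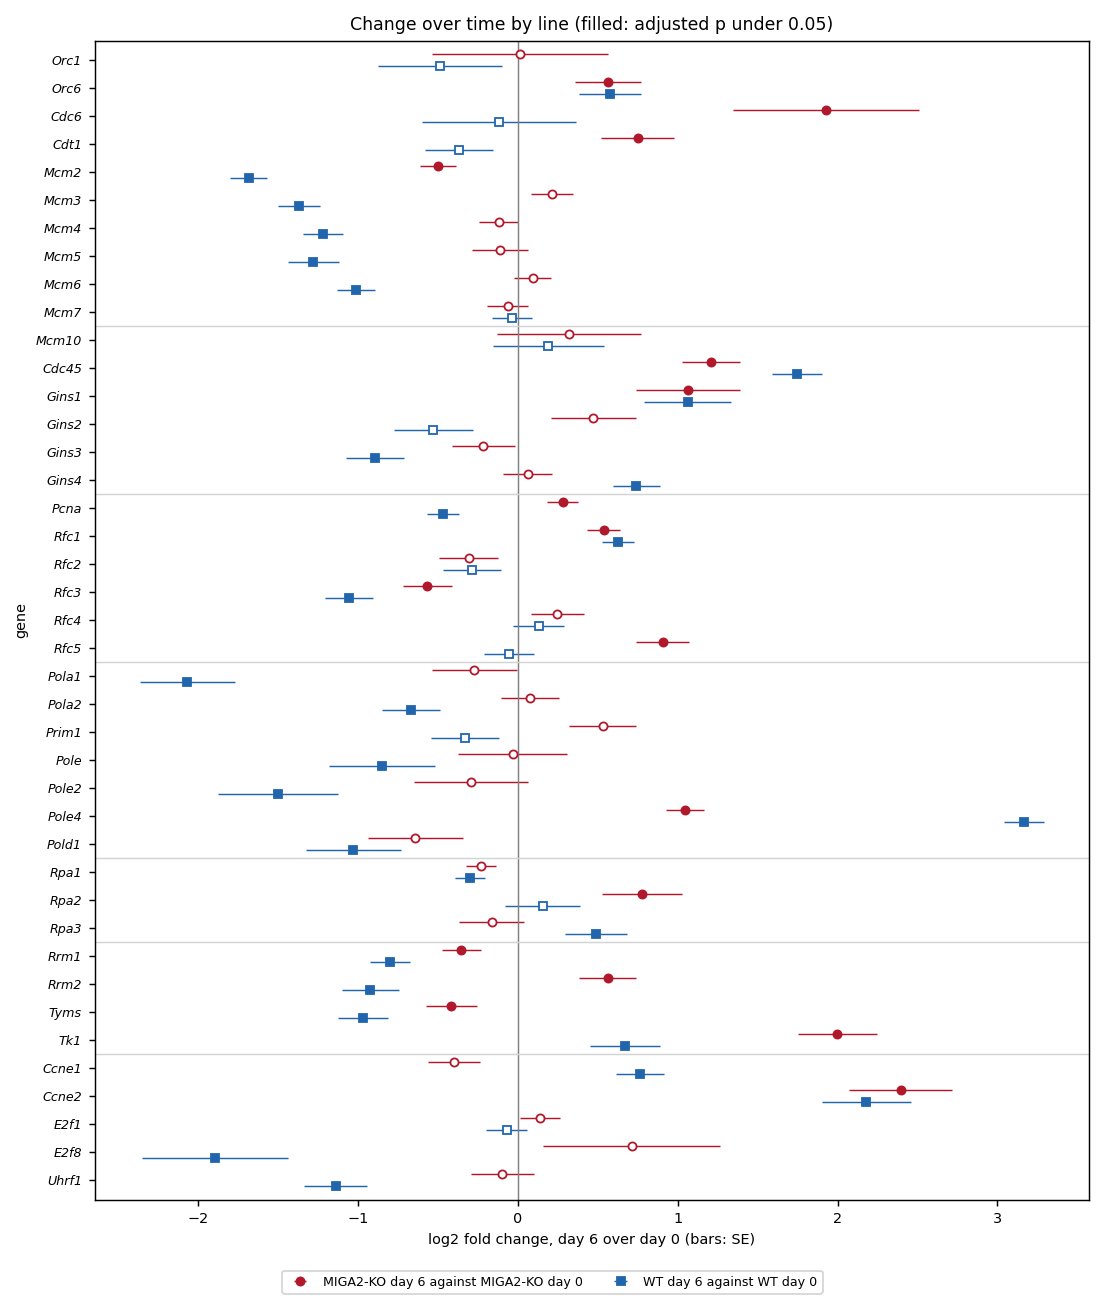
Log2 fold change of day 6 over day 0 (x axis) for each of the 41 genes (rows, by role), with MIGA2-KO as circles, WT as squares, bars for SE and filled symbols for an adjusted p under 0.05. The WT squares of Mcm2 to Mcm6 lie left of -1, where the MIGA2-KO circles lie between -0.50 and 0.21, and Pole4 lies furthest right in WT, at 3.17.

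The change over time was then compared between the lines as MIGA2-KO minus WT. By construction this difference is also MIGA2-KO against WT at day 6 less the same at day 0. It uses the same libraries, so it is not a result separate from those comparisons. The difference was positive and passed for 15 genes and negative for 3, where 13.7% of all genes tested passed with a positive and 13.6% with a negative difference, or 27.2% with either. The median difference was 0.62 on the log2 scale over the 41 genes and 0.02 over all genes tested. Licensing genes held 6 of the 15, Mcm2 to Mcm6 and Cdt1, and none of the negative ones. Among the licensing genes Mcm3 had the smallest adjusted p (difference 1.58 ± 0.19 SE, adjusted p = 3.21e-05, edgeR). It fell in WT cells and did not pass in MIGA2-KO cells. Ribonucleotide reductase Rrm2 (1.48 ± 0.25, adjusted p = 0.000604, edgeR) and Pcna (0.75 ± 0.14, adjusted p = 0.00123, edgeR) fell in WT cells and rose in MIGA2-KO cells. The calls of both rises were lost with the offsets for GC content and length and with some single libraries left out. Of those that passed, Pola1 (1.80) and E2f8 (2.61) had the widest positive differences, and E2f8 rests on levels under 2.1 CPM. E2f8 was tested only because of its level in WT day 0, which favoured a positive difference in advance. The negative differences were those of Pole4 (-2.12 ± 0.17, adjusted p = 1.06e-06, edgeR), Ccne1 (-1.16 ± 0.22, adjusted p = 0.00153, edgeR) and Gins4 (-0.68 ± 0.21, adjusted p = 0.0281, edgeR), which all rose in WT cells. Orc6 (-0.01), Gins1 (0.00), Rfc1 (-0.09) and Ccne2 (0.21), which rose in both lines, had no difference that passed, and neither had Cdc45 (-0.54). With 1 library left out, Gins4 (adjusted p 0.0576 to 0.0812, edgeR) was lost without replicate 2 of WT day 0, WT day 6, MIGA2-KO day 0 or MIGA2-KO day 6, WT day 0 replicate 3 or MIGA2-KO day 0 replicate 1. Pola2 (0.0517 to 0.107) was lost in 11 of 15 refits, all but those without WT day 0 replicate 1, WT day 6 replicate 3, MIGA2-KO day 6 replicate 1 or MIGA2-GFP replicate 1, and Prim1 (0.0586 to 0.105) in 9, without WT day 0 replicate 3, WT day 6 replicate 2 or 3, any MIGA2-KO day 0 library, MIGA2-KO day 6 replicate 2 or 3 or MIGA2-GFP replicate 1. The offsets for GC content and length ended the calls of Gins4 (-0.37) and Prim1 (0.75), and added positive ones for Cdc6 (1.92), Gins2 (1.04), Gins3 (0.75), Pole2 (1.29), Rpa2 (0.85) and E2f1 (0.43) and a negative one for Rfc1 (-0.28). Without replicate 1 of WT day 0, WT day 6 and MIGA2-KO day 6 together, 6 differences were negative and passed.

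At day 0, when the hormone mixture was added, MIGA2-KO cells had lower levels of 25 of the 41 replication transcripts than WT cells. Only 2 were higher and 14 did not pass, where 17.7% of all genes tested were lower and 16.1% higher, or 33.9% in either direction. The median log2 fold change was -0.62, beside -0.03 over all genes tested. The lines did not overlap, in either direction, for 30 genes. Of all genes tested, 25.6% were without overlap and lower and a further 25.4% without overlap and higher. These libraries also differed in mitosis genes, whose part in the result was not tested, of which 21 of 30 were lower in MIGA2-KO day 0 and none higher, with a summed level of 144.6 to 155.5 CPM in MIGA2-KO day 0, against 252.2 to 268.3 CPM in WT day 0.

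In origin licensing 9 of 10 genes were lower, all but Mcm7 (-0.29). Mcm5 (ENSMUSG00000005410, chromosome 8: 75109569 to 75128439, forward strand) stood at 4.57, 3.59 and 4.38 CPM in MIGA2-KO day 0, against 15.1, 12.5 and 13.3 CPM in WT day 0, a 3.26-fold lower level (log2 fold change -1.71 ± 0.16 SE, adjusted p = 6.99e-06, edgeR). All MIGA2-KO libraries were far below all WT libraries. Mcm3 fell by 1.06, Mcm6 by 0.64, Mcm2 by 0.56 and Mcm4 by 0.41 on the log2 scale. Orc1, the origin ATPase, stood at 0.481, 0.382 and 0.324 CPM in MIGA2-KO day 0, against 1.42, 1.15 and 0.911 CPM in WT day 0 (-1.52 ± 0.43, adjusted p = 0.0139, edgeR). Enough counts for a test of Orc1 came only from the WT day 0 libraries, so this lower call was favoured in advance. Orc6 stood at 9.95, 9.79 and 12.9 CPM in MIGA2-KO day 0, against 36.8, 23.6 and 25.5 CPM in WT day 0 (-1.39 ± 0.20, adjusted p = 0.000192, edgeR). Cdc6 fell by 1.61 and Cdt1 by 1.02, so the loading factors were lower along with the ring.

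All 6 helicase activation genes had lower means in MIGA2-KO cells, and 5 passed. Gins4 stood at 17.4, 16 and 15 CPM in MIGA2-KO day 0, against 38.3, 26.4 and 29.1 CPM in WT day 0 (log2 fold change -0.95 ± 0.15, adjusted p = 0.000356, edgeR), with no overlap. Mcm10 fell by 1.29, Gins2 by 1.19, Gins3 by 0.90 and Cdc45 by 0.82, and Gins1 (-0.72) did not pass. Rfc4 led the clamp loader (-0.67 ± 0.16, adjusted p = 0.00626, edgeR), with Rfc5 (-0.65) and Rfc3 (-0.42), while Pcna (-0.10), Rfc1 (-0.04) and Rfc2 (-0.33) did not pass. Of the polymerase genes Pole4 alone passed (-0.43 ± 0.12, adjusted p = 0.0143, edgeR), and Pola1 overlapped between the lines, at 10.5, 10.6 and 8.84 CPM in MIGA2-KO day 0, against 7.59, 9.89 and 12.4 CPM in WT day 0 (0.00). Pola2 (-0.39), Prim1 (-0.06), Pole (-0.48), Pole2 (-0.29) and Pold1 (-0.16) did not pass. Rpa2 fell by 1.00 (adjusted p = 0.00681, edgeR), and Rpa1 (0.05) and Rpa3 (-0.25) did not pass.

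The 2 genes higher in MIGA2-KO cells at day 0 were Rrm1 and E2f1. Rrm1 stood at 123.7, 121.4 and 114.5 CPM in MIGA2-KO day 0, against 69.9, 73.9 and 85.5 CPM in WT day 0 (log2 fold change 0.65 ± 0.12, adjusted p = 0.00121, edgeR). E2f1 stood at 57.5, 56.5 and 58.9 CPM in MIGA2-KO day 0, against 45.5, 40.9 and 32.9 CPM in WT day 0 (0.54 ± 0.13, adjusted p = 0.00552, edgeR). Neither overlapped between the lines. The partner of Rrm1, Rrm2, went the other way (-0.83), as did Tyms (-0.80). Tk1 stood at 2.65, 2.22 and 2.51 CPM in MIGA2-KO day 0, against 10, 5.83 and 5.14 CPM in WT day 0 (-1.5 ± 0.24, adjusted p = 0.000436, edgeR). E2f8 stood at 0.481, 0.382 and 0.324 CPM in MIGA2-KO day 0, against 1.46, 2.07 and 1.78 CPM in WT day 0, a 4.42-fold lower level (-2.14 ± 0.45, adjusted p = 0.00272, edgeR), the widest change of the 41 genes here. As it was tested only because of its WT day 0 level, this lower call was favoured in advance. Ccne1 fell by 0.62 and Uhrf1 by 0.57, and Ccne2 (-0.43) did not pass. With 1 library left out, Orc1 (adjusted p 0.0554 to 0.0629, edgeR) was lost without MIGA2-KO day 0 replicate 2 or 3, Pole4 (0.0533 to 0.0814) without WT day 0 replicate 1 or MIGA2-KO day 0 replicate 3, Mcm10 (0.0557 to 0.0886) without WT day 0 replicate 2 or MIGA2-KO day 0 replicate 1 or 2, and Mcm4 (0.0549 to 0.0738) without WT day 0 replicate 2 or 3 or MIGA2-KO day 0 replicate 1 or 2. Uhrf1 (0.0681 to 0.124, edgeR) was lost without replicate 2 or 3 of either group, Cdc6 (0.0501 to 0.159) without WT day 0 replicate 2 or 3, any MIGA2-KO day 0 library or MIGA2-GFP replicate 1, and Rfc3 (0.0501 to 0.18) without WT day 0 replicate 1, MIGA2-KO day 0 replicate 1 or 2, MIGA2-KO day 6 replicate 2 or 3 or any MIGA2-GFP library. The offsets for GC content and length ended the calls of Pole4 (-0.20) and Rfc3 (-0.37), and the replicate block those of Cdc6 (-1.66), Uhrf1 (-0.57) and Rfc3 (-0.43).

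At day 6 the lines differed in both directions. Of the 41 genes 10 were higher and 11 lower in MIGA2-KO cells, where 29.2% of all genes tested were higher and 31.5% lower, or 60.7% in either direction. The members' shares, 24.4% higher and 26.8% lower, were near or under those of all genes. Their median log2 fold change was 0.06, beside -0.01 over all genes tested. The lines did not overlap, in either direction, for 22 genes. Of all genes tested, 30.2% were without overlap and higher and a further 31.7% without overlap and lower. Of the 25 genes lower in MIGA2-KO cells at day 0, 8 were lower at day 6, 5 were higher (Mcm2, Mcm3, Mcm4, Mcm6 and Rrm2) and 12 did not pass. Rrm1 and E2f1 were higher on both days.

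Of the 6 ring genes 4 were higher and 2 lower. Mcm4 stood at 29.6, 32.3 and 33.4 CPM in MIGA2-KO day 6, against 23.2, 18.1 and 17.7 CPM in WT day 6 (log2 fold change 0.69 ± 0.13 SE, adjusted p = 0.000333, edgeR). Mcm2 (0.63), Mcm3 (0.52) and Mcm6 (0.47) were also higher, Mcm5 (-0.54) and Mcm7 (-0.32) lower. Orc6 stood at 21, 13.7 and 13.5 CPM in MIGA2-KO day 6, against 42.7, 48 and 37.2 CPM in WT day 6 (-1.41 ± 0.20, adjusted p = 4.21e-05, edgeR), lower without overlap although replicate 1 was above the other pair. Orc1 (-1.02), Cdc6 (0.43) and Cdt1 (0.10) did not pass. The helicase activators that passed were all lower. Gins4 stood at 16.9, 14.8 and 18.8 CPM in MIGA2-KO day 6, against 48.4, 59.6 and 48.7 CPM in WT day 6 (-1.63 ± 0.15, adjusted p = 8.82e-07, edgeR). Cdc45 fell by 1.36 (adjusted p = 9.11e-06, edgeR), Mcm10 by 1.17 and Gins1 by 0.72, and Gins2 (-0.19) and Gins3 (-0.22) did not pass.

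At the fork, Pcna stood at 34.6, 32.6 and 31.4 CPM in MIGA2-KO day 6, against 22.5, 20.8 and 19.6 CPM in WT day 6 (log2 fold change 0.65 ± 0.10, adjusted p = 8.61e-05, edgeR), all higher. Rfc4 was lower (-0.55), and Rfc1 (-0.13), Rfc2 (-0.35), Rfc3 (0.06) and Rfc5 (0.31) did not pass. Pole4 stood at 69.4, 68.1 and 69.6 CPM in MIGA2-KO day 6, against 380.3, 440.6 and 390.7 CPM in WT day 6, a 5.85-fold lower level (-2.55 ± 0.12, adjusted p = 4.83e-09, edgeR). All 9 adipocyte markers were lower in MIGA2-KO day 6 as well, and their part in this result was not tested. Pola1 stood at 8.09, 8.98 and 7.75 CPM in MIGA2-KO day 6, against 2.53, 3.61 and 0.971 CPM in WT day 6 (1.80 ± 0.31, adjusted p = 0.000187, edgeR), and Prim1 was higher as well (0.80). Pola2 (0.36), Pole (0.34), Pole2 (0.91) and Pold1 (0.23) did not pass. Rpa3 was lower (-0.89 ± 0.20, adjusted p = 0.00154, edgeR), and Rpa1 (0.12) and Rpa2 (-0.37) did not pass.

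Both ribonucleotide reductase genes were higher in MIGA2-KO cells at day 6. Rrm1 stood at 79.8, 99 and 102.3 CPM in MIGA2-KO day 6, against 48.7, 40.7 and 42.1 CPM in WT day 6 (log2 fold change 1.10 ± 0.13, adjusted p = 5.74e-06, edgeR), and Rrm2 rose by 0.65. Tyms (-0.25) and Tk1 (-0.17) did not pass. Ccne1 stood at 7.74, 7.42 and 7.05 CPM in MIGA2-KO day 6, against 23.7, 29.1 and 23.6 CPM in WT day 6, a 3.44-fold lower level (-1.78 ± 0.16, adjusted p = 6.85e-07, edgeR). E2f1 stood at 56.4, 67.4 and 66.3 CPM in MIGA2-KO day 6, against 33.3, 38.9 and 41.4 CPM in WT day 6 (0.74 ± 0.13, adjusted p = 0.000214, edgeR). Neither gene overlapped between the lines, and Ccne2 (-0.22), E2f8 (0.46) and Uhrf1 (0.47) did not pass. The offsets for GC content and length ended the calls of Mcm5 (-0.39), Mcm6 (0.29), Mcm7 (-0.06), Gins1 (-0.03) and Rfc4 (-0.08), and the replicate block those of Gins1 (-0.73) and Mcm7 (-0.33). The same offsets added higher calls for Cdt1 (0.46), Pola2 (0.46), Pole2 (1.26) and Uhrf1 (0.61) and lower ones for Rfc1 (-0.41) and Ccne2 (-0.65), so that 13 genes were higher and 9 lower. With 1 library left out, Mcm5 (adjusted p 0.0625 to 0.0721, edgeR) was lost without replicate 1 of WT day 6 or of MIGA2-KO day 6, Rfc4 (0.0615) without WT day 6 replicate 2, and Mcm10 (0.0669 to 0.0955) without WT day 6 replicate 2 or 3 or MIGA2-KO day 6 replicate 2. Gins1 (0.0536 to 0.108, edgeR) was lost without WT day 6 replicate 2 or 3, any MIGA2-KO library or MIGA2-GFP replicate 3, and Mcm7 (0.0513 to 0.174) without WT day 0 replicate 2, WT day 6 replicate 2 or 3, any MIGA2-KO day 0 library, MIGA2-KO day 6 replicate 2 or 3 or MIGA2-GFP replicate 3.

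MIGA2-GFP cells at day 6 were set against the same WT day 6 libraries, so their values are given beside those of MIGA2-KO without a test of likeness. Of the 41 genes 14 were lower and 2 higher in MIGA2-GFP cells, where 18.9% of all genes tested were lower and 16.5% higher, or 35.3% in either direction. The median log2 fold change was -0.34, beside 0.00 over all genes tested. The lines did not overlap, in either direction, for 18 genes. Of all genes tested, 25.1% were without overlap and lower and a further 25.2% without overlap and higher. In these libraries 13 of 30 mitosis genes and 6 of 9 adipocyte markers were lower and none of either higher, with a summed mitosis level of 103.3 to 110.6 CPM in MIGA2-GFP day 6, against 137.5 to 154.9 CPM in WT day 6.

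Of the 14 lower calls origin licensing held 5, among its 10 genes. Mcm5 stood at 2.9, 2.98 and 2.95 CPM in MIGA2-GFP day 6, against 6.51, 5.07 and 5.24 CPM in WT day 6 (log2 fold change -0.93 ± 0.18 SE, adjusted p = 0.00146, edgeR). Orc1 was at 0.171, 0.0763 and 0.19 CPM in MIGA2-GFP day 6, against 0.904, 0.585 and 0.971 CPM in WT day 6 (-2.46 ± 0.61, adjusted p = 0.00672, edgeR), which rests on 5 counts against 26. Orc6 fell by 0.88, Mcm3 by 0.49 and Mcm7 by 0.44, and Mcm2 (0.02), Mcm4 (-0.12), Mcm6 (-0.10), Cdc6 (0.64) and Cdt1 (0.12) did not pass. Gins4 stood at 26.6, 27.3 and 23.6 CPM in MIGA2-GFP day 6, against 48.4, 59.6 and 48.7 CPM in WT day 6 (-1.01 ± 0.15, adjusted p = 0.000223, edgeR). Gins2 fell by 0.95 and Cdc45 by 0.81, and Mcm10 (-0.79), Gins1 (-0.24) and Gins3 (-0.11) did not pass.

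Pole4 stood at 163.6, 168.9 and 172.8 CPM in MIGA2-GFP day 6, against 380.3, 440.6 and 390.7 CPM in WT day 6 (log2 fold change -1.26 ± 0.12, adjusted p = 7.13e-06, edgeR). The other 6 polymerase genes did not pass, at -0.67 for Pole to 0.35 for Pola1, nor did the 3 RPA genes, at -0.39 to -0.08. Rfc4 (-0.79 ± 0.17, adjusted p = 0.00264, edgeR) and Rfc5 (-0.52) were lower and Pcna higher (0.36), with Rfc1 (0.19), Rfc2 (-0.35) and Rfc3 (-0.43) not passing. Tk1 stood at 4.44, 4.96 and 4.67 CPM in MIGA2-GFP day 6, against 9.77, 10.8 and 12.7 CPM in WT day 6 (-1.24 ± 0.23, adjusted p = 0.0012, edgeR). Rrm1 was lower (-0.58), unlike in MIGA2-KO cells, at 27.1, 27.7 and 33.1 CPM in MIGA2-GFP day 6, and Rrm2 (-0.20) and Tyms (-0.23) did not pass. Ccne2 was higher at 5.89, 6.57 and 6.38 CPM in MIGA2-GFP day 6, against 4.52, 3.22 and 3.01 CPM in WT day 6 (0.81 ± 0.25, adjusted p = 0.0209, edgeR), and Ccne1 lower (-0.46). E2f1 (0.33), E2f8 (-0.48) and Uhrf1 (0.13) did not pass.

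Neither higher call held throughout. No gene was higher without WT day 6 replicate 2 or 3 or MIGA2-GFP replicate 2, and 1 was without MIGA2-GFP replicate 1 or 3. Pcna was lost (adjusted p 0.0521 to 0.0591, edgeR) without WT day 6 replicate 2 or 3 or MIGA2-GFP replicate 1 or 2, and Ccne2 (0.0621 to 0.0832) without WT day 6 replicate 2 or 3 or MIGA2-GFP replicate 2 or 3. Among the lower genes, Mcm3 (adjusted p 0.0584 to 0.0654, edgeR) and Ccne1 (0.0668 to 0.122) were lost without WT day 6 replicate 2 or MIGA2-GFP replicate 1 or 3, Mcm7 (0.0551 to 0.0727) without replicate 2 of either group, Rfc5 (0.0647 to 0.101) without WT day 6 replicate 3 or MIGA2-GFP replicate 1 or 3, and Gins2 (0.0658 to 0.0749) without WT day 6 replicate 3 or MIGA2-GFP replicate 1. The offsets for GC content and length ended the call of Ccne1 (-0.22) and added those of Pole (-0.92), lower, and E2f1 (0.29), higher. Without replicate 1 of WT day 0, WT day 6 and MIGA2-KO day 6 together, 5 genes were higher.

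**Figure D5:**
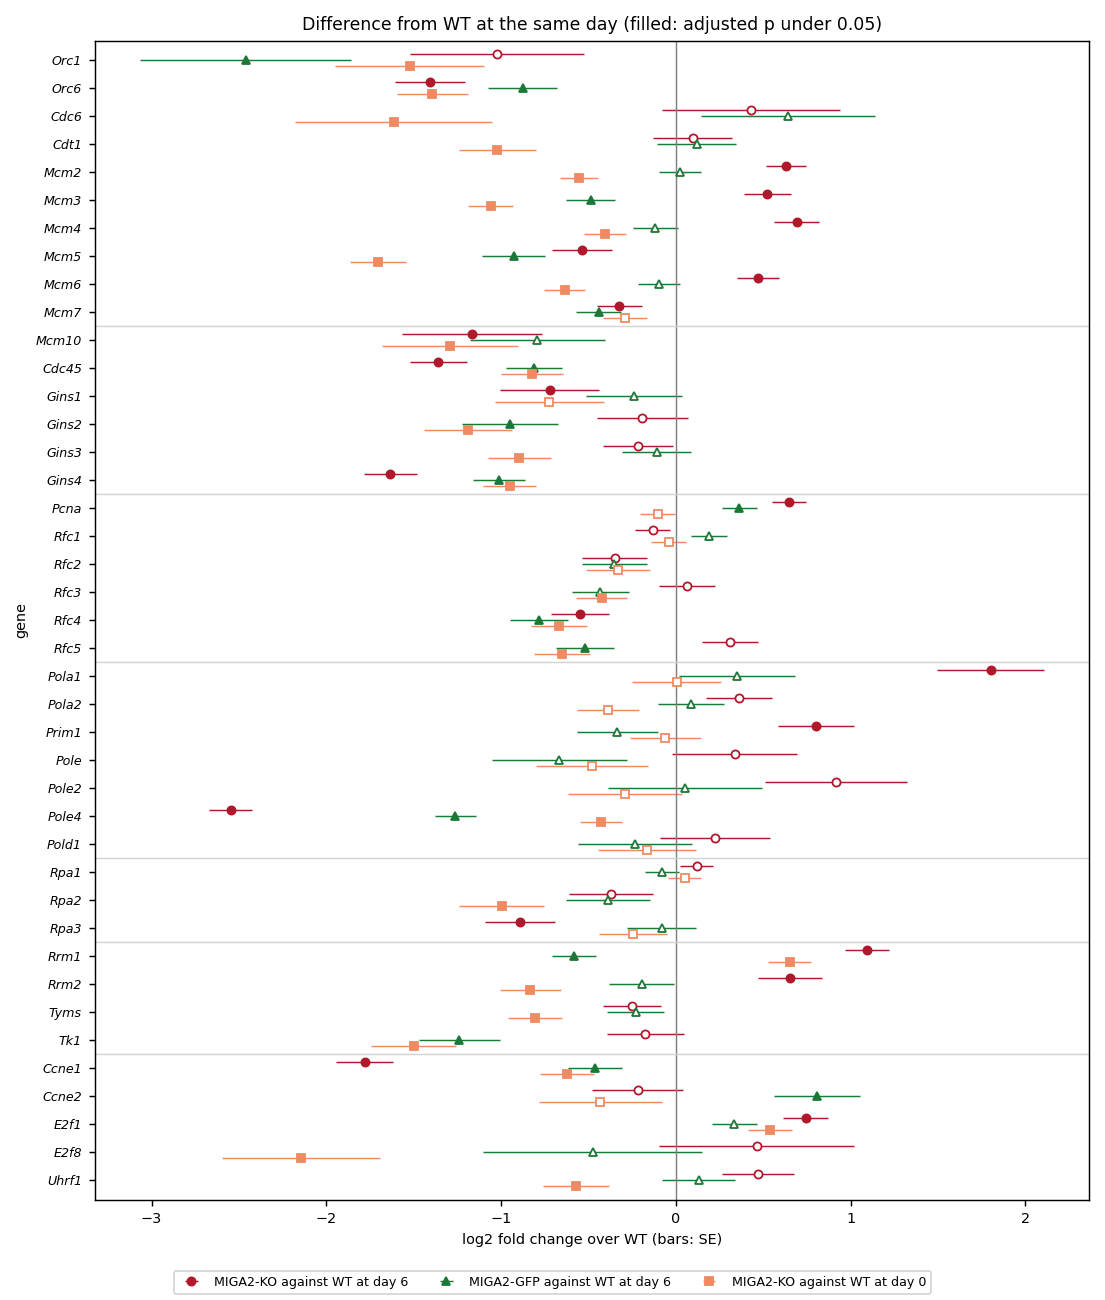
Log2 fold change over WT of the same day (x axis) for each of the 41 genes (rows, by role), with MIGA2-KO at day 6 as circles, MIGA2-GFP at day 6 as triangles, MIGA2-KO at day 0 as squares, bars for SE and filled symbols for an adjusted p under 0.05. The day 0 squares lie left of 0 for all but Pola1, Rpa1, Rrm1 and E2f1, and Pole4 lies at -2.55 for MIGA2-KO and -1.26 for MIGA2-GFP at day 6.

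E2f2, an activator E2F, had too few counts for the test. It stood at 0.174, 0.33 and 0.348 CPM in MIGA2-KO day 6, 0.598, 0.153 and 0.0952 CPM in MIGA2-GFP day 6, 1.27, 0.877 and 1.84 CPM in WT day 6, 0.0803, 0 and 0 CPM in MIGA2-KO day 0, and 0.519, 0.373 and 0.29 CPM in WT day 0. MIGA2-KO cells held 10 counts at day 6 against 1 at day 0, a ratio of 10.8 per library size with an exact 95% interval of 1.53 to 468. At day 0 they held 1 count against 29 in WT, a ratio of 0.0682 with an interval of 0.00167 to 0.411. Intervals cover counting error only.

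Whether counting used strand is not stated in the labels, and exons of 10 of the 42 genes overlap another gene of the files, so reads may be shared. Gins2 is the most exposed, as 67.3% of its exon length lies opposite Gse1, which had a mean of 27.8 CPM over the groups beside 5.16 CPM for Gins2. The overlap was 17.4% for Ccne2 (Ints8), 15.1% for Rfc2 (Lat2), 12.7% for Rfc4 (Eif4a2), 10.7% for Rfc5 (Wsb2), 8.5% for Pole2 (Gm49384), 7.25% for Mcm7 (Ap4m1), 6.93% for Orc6 (Vps35), 5.96% for Cdc45 (Ufd1) and 1.6% for Tk1 (Afmid).

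Other genes of S phase were counted from lists for comparison. Over all genes tested, 31.7% were higher and 33.1% lower over time in WT cells, and 23.3% and 21% over time in MIGA2-KO cells. Against WT, 16.1% were higher and 17.7% lower in MIGA2-KO at day 0, 29.2% and 31.5% at day 6, and 16.5% and 18.9% in MIGA2-GFP. For the difference of the change over time, 13.7% passed with a positive and 13.6% with a negative value. Of 34 tested replication factors outside the 42 genes, 6 were higher and 9 lower over time in WT cells, 5 higher and 6 lower over time in MIGA2-KO cells, 2 higher and 10 lower in MIGA2-KO against WT at day 0, 6 higher and 9 lower in MIGA2-KO against WT at day 6, and 2 higher and 6 lower in MIGA2-GFP against WT at day 6. As shares of the 34, 17.6% were higher and 26.5% lower over time in WT cells, both under those of all genes. Only the lower share in MIGA2-KO against WT at day 0, 29.4%, was above that of all genes. Dbf4, the activator of the kinase that fires origins, fell by 2.54 on the log2 scale over time in WT cells (adjusted p = 3.33e-07, edgeR), and the ligase Lig1 by 1.42. Of 11 chromatin assembly genes 2 were higher and 5 lower over time in WT cells, 1 higher and 3 lower over time in MIGA2-KO cells, none higher and 4 lower in MIGA2-KO against WT at day 0, 3 higher and 3 lower in MIGA2-KO against WT at day 6, and none higher and 2 lower in MIGA2-GFP against WT. Chaf1b, which deposits histones behind the fork, fell by 2.48 over time in WT cells and by 1.15 in MIGA2-KO cells. The test of MIGA2-KO minus WT for the change over time passed with a positive value for 4 genes of each of these 2 lists and with a negative value for none. Of 30 mitosis genes, none was higher and 22 were lower over time in WT cells (median log2 fold change -1.07), 2 were higher and 3 lower over time in MIGA2-KO cells (0.08), and the difference was positive and passed for 17.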

How the data were processed

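RNA from 15 libraries was sequenced (stranded TruSeq kit, per the labels' protocols). Per the submitters' processing notes, bcl2fastq 2.19, Trimmomatic, STAR 2.5.4b, featureCounts, edgeR and the GRCm38.p5 build were used. The authors deposited whole-number gene counts, 1 file per library, without normalization. The annotation release and whether strand was used in counting were not given in the sources used here.

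Groups were taken from sample titles. Counts were tested in R 4.3.3 with edgeR 4.0.16: filterByExpr (minimum count 10, minimum total 15) kept 12279 of 25700 genes, TMM scaling and 1 quasi-likelihood model of 5 groups over all 15 libraries followed, and p-values were adjusted over all genes tested within each comparison, with a threshold of 0.05. The SE of a log2 fold change was derived from its size and the F statistic (size over root F). CPM values are TMM-scaled, and per-kb values use exon lengths of GENCODE vM21. The common biological coefficient of variation was 15.96%. Symbols matched 25587 identifiers, and 113 had none. The fit was tested on simulated data, drawn with the same spread per gene in all groups and with 200 of the 12279 genes changed each time. Of genes changed 2-fold, 67% to 76% were recovered in the comparisons of 2 groups and 34% in the difference of the change over time. At 1.5-fold 8% to 40% and 4% were recovered. False calls made up 1.52% to 5.63% and 8.75% of calls. Far more genes passed in the data than were changed in the simulations, which moves the cut-off, so these rates do not carry over to the data. A gene that did not pass may still differ.

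The members and lists were chosen with earlier results of these data known. Named in each comparison were, per role, the called member with the smallest adjusted p, the 5 called members with the largest fold change and those called against the majority, and for other lists up to 3 called genes with the smallest adjusted p. Labels do not say whether libraries came from separate cultures, so the p-values reflect the variation among these libraries, which may be technical. The fit took 1 spread per gene over all 5 groups, so a p-value does not measure the spread of the compared groups alone. The scatter of counts between replicate pairs differed by group. As chi-square per degree of freedom it was 21.15 to 133.7 in WT day 0, 9.948 to 70.69 in WT day 6 and 2.255 to 39.02 in MIGA2-KO day 6. It was 1.739 to 2.895 in MIGA2-KO day 0 and 1.762 to 1.933 in MIGA2-GFP day 6. Alternatives were DESeq2 1.42.0, RLE size factors, no filter on low counts, only the groups compared, a replicate block, offsets for GC content and length, leaving out together the 3 libraries that stood apart (replicate 1 of WT day 0, WT day 6 and MIGA2-KO day 6), and leaving out each library.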

Additional observations from a re-analysis of the deposited data

Results flagged for a closer look

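For 18 of the 41 tested genes the change over 6 days differed between the lines by edgeR's test of the difference itself (MIGA2-KO minus WT, log2 scale, 3 libraries in each of 4 groups), where 13.7% of all genes tested passed with a positive and 13.6% with a negative difference, or 27.2% with either. In origin licensing the difference was 1.12 for Cdt1, 1.19 for Mcm2, 1.58 for Mcm3, 1.10 for Mcm4, 1.17 for Mcm5 and 1.11 for Mcm6. It was -0.68 for Gins4, the only helicase activator that passed, and 0.75 for Pcna and 0.96 for Rfc5 in the clamp group. In the polymerase group it was 1.80 for Pola1, 0.75 for Pola2, 0.86 for Prim1 and -2.12 for Pole4. The nucleotide genes gave 1.48 for Rrm2 and 1.33 for Tk1, and the regulators -1.16 for Ccne1, 2.61 for E2f8 and 1.04 for Uhrf1. E2f8 was tested only because of its level in WT day 0. Each value equals MIGA2-KO against WT at day 6 less the same at day 0, so it can come from either day. For Cdt1, Mcm5 and Tk1 the lines differed by -1.02, -1.71 and -1.50 at day 0 and by 0.10, -0.54 and -0.17 at day 6. For Pola1 they differed by 0.00 at day 0 and by 1.80 at day 6. Mitosis genes differed in the same test for 17 of 30, all with a positive value, and adipocyte markers for 3 of 9, all with a negative value. What part these had was not tested.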

How the results depend on the processing

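Of the 71 named results, 475 values under the settings other than leaving out single libraries kept their direction and their side of the threshold, 20 kept the direction and lost the call, and 1 reversed. With single libraries left out, 1003 kept both, 62 lost the call and none reversed. The reversal was Rpa3 over time in WT cells, -0.071 with offsets for GC content and length, under which 5 members were higher. Over time in MIGA2-KO cells 8 members were lower with only the groups compared and 7 without the 3 libraries that stood apart. Without those 3, 5 members were higher in MIGA2-GFP, and 6 had a negative difference of the change over time. The causes were not tested. With each library left out, the counts of higher and lower members ranged over 8 to 11 and 18 to 20 for WT over time, 8 to 15 and 2 to 6 for MIGA2-KO over time, 2 to 2 and 19 to 26 for MIGA2-KO against WT at day 0, 10 to 12 and 8 to 13 at day 6, 0 to 3 and 11 to 16 for MIGA2-GFP, and 13 to 18 and 2 to 4 for the difference. Over time in MIGA2-KO cells, 8 members were higher without MIGA2-KO day 0 replicate 3, and 2 were lower without MIGA2-KO day 0 replicate 1 or 2 or MIGA2-KO day 6 replicate 1. In MIGA2-GFP, 0 were higher without WT day 6 replicate 2 or 3 or MIGA2-GFP replicate 2. With only the groups compared, Orc6, Pole, Rpa1, Rpa3 and Tk1 lost their calls over time in WT cells, Rfc3, Pole4 and Uhrf1 at day 0, Mcm5 and Mcm7 at day 6 and Pola2 in the difference. Without the filter Rpa3, Pcna, Tyms, Rfc3, Gins1, Mcm7 and Prim1 lost theirs, with DESeq2 Tyms, Gins1 and Prim1, and with RLE factors Tyms and Prim1. Replicate numbers did not pair the libraries (same-number correlations of -0.723 to 0.116). Between WT day 6 and WT day 0 the best correlations under another number were 0.715, 0.48 and 0.476. The block by number thus does not join the WT libraries most alike. With the replicate block 10 members were higher and 19 lower over time in WT, 13 and 3 in MIGA2-KO, and 2 and 22 at day 0. It gave 10 and 9 at day 6, 2 and 14 in MIGA2-GFP, and 14 and 3 for the difference. Genes with a mean under 1 CPM over all groups, such as Orc1, E2f2 and E2f8, are limited by depth.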

Other observations

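Cell cycle regulators outside the replication genes were counted from lists (edgeR, adjusted p under 0.05). Of all genes tested, 31.7% were higher and 33.1% lower over time in WT cells, and 23.3% and 21% over time in MIGA2-KO cells. Against WT, 16.1% were higher and 17.7% lower in MIGA2-KO at day 0, 29.2% and 31.5% at day 6, and 16.5% and 18.9% in MIGA2-GFP. These shares serve for every list below. Genes named below were picked for a small adjusted p and do not stand for their lists. Of 6 tested CDK inhibitors, 2 were higher and 3 lower over time in WT cells, and 2 higher and 3 lower over time in MIGA2-KO cells. Cdkn2c, which binds and blocks CDK4 and CDK6, rose by 2.59 on the log2 scale over time in WT cells and by 1.61 in MIGA2-KO cells, and Cdkn2b, another inhibitor of the same kinases, fell by 1.64 in WT cells and by 0.51 in MIGA2-KO cells. At day 0, 4 of the 6 were lower in MIGA2-KO than in WT and none higher, and at day 6 1 was higher and 3 lower. In MIGA2-GFP against WT 1 was higher and 1 lower.

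Of 11 G1 cyclin and CDK genes, 4 were higher and 4 lower over time in WT cells and likewise in MIGA2-KO cells. Myc, a driver of growth genes, rose by 2.63 over time in WT cells and by 1.35 in MIGA2-KO cells, and Cdk4 fell by 1.41 and by 0.58. Against WT, 1 of the 11 was higher and 1 lower in MIGA2-KO at day 0, 3 higher and 3 lower at day 6, and 1 higher and 3 lower in MIGA2-GFP. Of 14 E2F and pocket protein genes, 3 were higher and 4 lower over time in WT cells, and 2 higher and none lower in MIGA2-KO cells. E2f7, the atypical partner of E2f8, fell by 2.45 over time in WT cells, and MIGA2-KO minus WT was 2.70 for its change over time. Against WT, 1 of the 14 was higher and 3 lower in MIGA2-KO at day 0, 4 higher and 2 lower at day 6, and 1 higher and 1 lower in MIGA2-GFP.

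Of 18 replication checkpoint genes, 1 was higher and 6 lower over time in WT cells, and 2 were higher and none lower in MIGA2-KO cells. Timeless, a fork protection factor, was higher in MIGA2-KO than in WT at day 6 by 1.82 on the log2 scale. Against WT, 2 of the 18 were higher and 2 lower in MIGA2-KO at day 0, 4 higher and 1 lower at day 6, and none higher and 1 lower in MIGA2-GFP. Of 14 tested p53 targets, 1 was higher and 9 lower over time in WT cells, and 1 higher and 10 lower in MIGA2-KO cells. Against WT, none was higher and 3 lower in MIGA2-KO at day 0, 4 higher and 4 lower at day 6, and 1 higher and 4 lower in MIGA2-GFP.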
